A study of Oryza sativa Japonica Group with 4 samples.

Results

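The auxin response genes described here are the Aux/IAA, ARF and SAUR genes of rice. They were chosen by name alone: a gene was taken when its symbol or a synonym, with or without the prefix Os, was IAA, ARF or SAUR followed by a number, and when at least 1 probe set of the array was assigned to that gene and no other. This gave 44 of the 17905 genes measured in this way, namely 26 Aux/IAA genes, 17 ARF genes and 1 SAUR gene, SAUR39. The gene table holds 52 such genes. IAA11 and IAA29, and ARF5, ARF6, ARF8, ARF19, ARF21 and ARF25, had no probe set of their own in the annotation used and were not analysed here. A gene listed as ARF without a number did not meet the rule.

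Roots of rice seedlings (Oryza sativa Japonica, variety TNG67) were taken at 17 days of age. All seedlings had been raised in hydroponic solution without ammonium nitrate, so both groups were starved of nitrogen. In the +Glu group, glutamate (2.5 mM) was then supplied to the roots for 30 min, and the −N group received no nitrogen. RNA of 2 biological replicates per group was hybridized to 4 Affymetrix GeneChip Rice Genome Arrays, which carry sets of short probes for each transcript. The whole root was used, so fewer cells of a type and less RNA per cell cannot be told apart.

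Aux/IAA proteins are short-lived nuclear repressors. They bind ARF proteins, the transcription factors that sit on auxin response elements in promoters, and keep the genes there silent. Auxin brings Aux/IAA proteins to the TIR1/AFB receptors, where they are marked for breakdown, and the ARF proteins are set free. Many Aux/IAA and SAUR genes are themselves early targets of this release, whereas most ARF genes are not. In rice, the pathway controls lateral and crown root formation, root elongation and gravity response.

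Each probe set has a linear intensity on every array. All fold changes are +Glu over −N, from a limma fit to log2 intensities of all 17905 genes in which the brightest probe set stood for its gene. Brightness depends on the probes, so the level of 1 gene cannot be set against that of another. The median probe set was at 19.3 and 23.9 in the +Glu arrays and at 20.1 and 23.9 in the −N arrays, the higher value belonging to replicate 2 in both groups. Of 9 measured root markers, the silicon channel gene Lsi1 had 7831 and 8863 in +Glu and 7085 and 9275 in −N, and OsSCR1, a regulator of root ground tissue, did not exceed 12.0 on any array. Of 7 measured markers of green tissue, CAB2R, a chlorophyll-binding protein gene, had 10641 and 9106 in +Glu and 8748 and 10778 in −N, and the Rubisco small subunit gene OsrbcS had 665 and 821 in +Glu and 309.7 and 1193 in −N. In all 7 of these green tissue genes both +Glu arrays lay between the −N arrays. Of these, −N replicate 1 was the lower and replicate 2 the higher, with a median gap of 1.70 on the log2 scale. Both +Glu arrays lay between the −N arrays also in 5 of the 9 root markers and in 29.9% of all genes.

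None of the auxin response genes passed the thresholds in the study's methods. Of the 26 Aux/IAA genes, the 17 ARF genes and SAUR39, 0 were at least 2-fold apart with an unadjusted p under 0.05 from limma, against 1.73% of all genes (1.68% higher in +Glu and 0.0447% lower). Without the fold threshold, 0 of the 44 genes had an unadjusted p under 0.05, against 4.18% of all genes. After quantile normalization or median centring 2 Aux/IAA genes had an unadjusted p under 0.05 (IAA24 and IAA26 in the first case, IAA19 and IAA26 in the second). The share of all genes at that p was not counted under these 2 scalings, so these counts cannot be set against it. After Benjamini-Hochberg adjustment over all genes the adjusted p was 1 for each of the 44 genes, and 0 of the 17905 genes passed. Without −N replicate 1 the adjusted threshold was passed by 604 of all genes, and without −N replicate 2 by 562, with 0 of the 44 among them in either case. The largest fold change was 1.43, for IAA19, and the smallest 0.665, for IAA26. For 42 of the 44 genes the log2 fold change was under 0.5 in size, against 16305 of all 17905 genes.

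The precision of these differences differed from gene to gene. The standard error of the log2 fold change lay between 0.21 and 0.43 among the 44 genes, with a median of 0.26, the same as over all genes (0.26). In 33 of the 44 genes the 95% interval of the fold change lay wholly inside 2-fold in either direction, against 69.4% of all genes. For the other 11, among them IAA19, IAA26, IAA30, IAA31 and ARF3, a 2-fold difference lay within the interval. Precision is thus limited by having 2 arrays in a group.

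**Figure D1:**
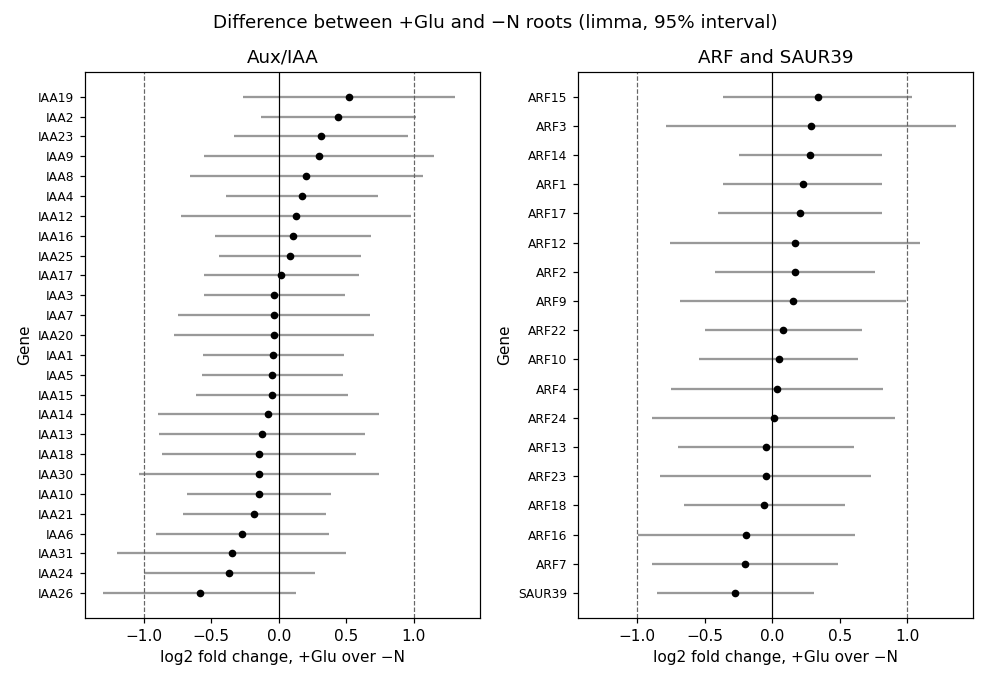
log2 fold change of +Glu over −N for each Aux/IAA gene (left panel) and for each ARF gene and SAUR39 (right panel). Points are limma estimates from 2 arrays per group, grey lines their 95% intervals, and dashed lines mark 2-fold in either direction. Every interval includes 0, and 33 of the 44 lie inside the dashed lines.

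The Aux/IAA genes, the repressors of the pathway, were spread on both sides of no difference. The log2 fold change was positive in 10 and negative in 16 of the 26, with a median of −0.040, against 0.026 over all genes. It ranged from −0.59 to 0.52. Over all genes 9880 were positive and 8025 negative. Without −N replicate 1 the split of the Aux/IAA genes was 6 and 20, against 5746 and 12159 over all genes. Without −N replicate 2 it was 17 and 9, against 13144 and 4761. Each +Glu array exceeded each −N array in 3 of the 26 genes and lay below it in 5, and the same orders held for 14.9% and 10.1% of all genes. After median centring these counts were 4 and 3, against 21.6% and 8.18% of all genes, and after quantile normalization 5 and 4, against 16.2% and 15.3%. In another 11 of the 26 both +Glu arrays lay between the −N arrays, against 29.9% of all genes. This count was 7 after median centring, against 25.6% of all genes, and 9 after quantile normalization, against 27.9%. Between the replicate 1 arrays, 18 of the 26 genes were higher in +Glu and 8 lower, and between the replicate 2 arrays 7 were higher, 18 lower and IAA16 level. Over all genes 11061 were higher and 6527 lower between the replicate 1 arrays, and 8044 were higher and 9527 lower between the replicate 2 arrays.

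**Figure D2:**
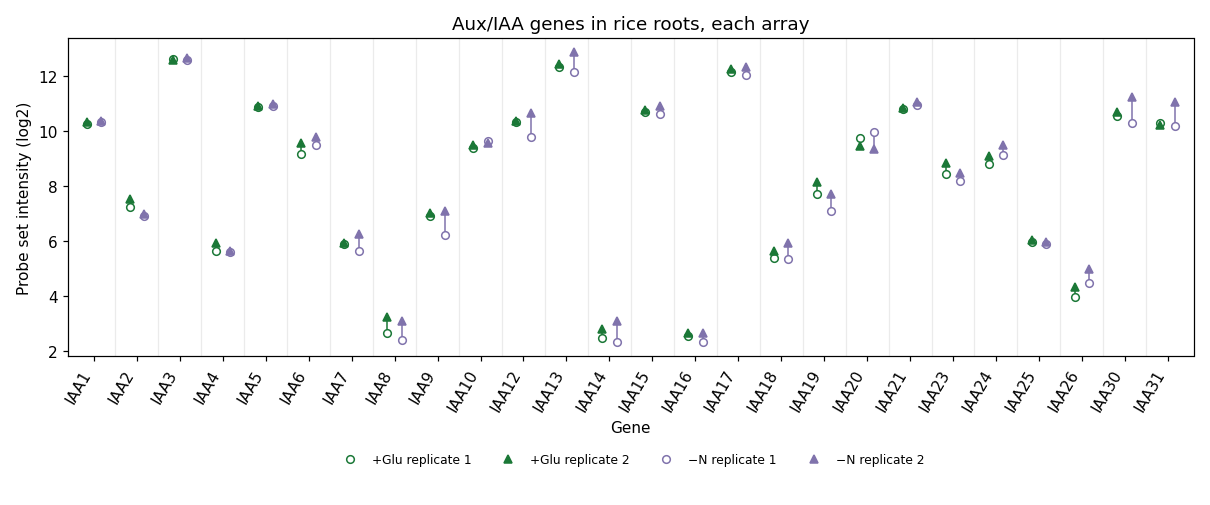
log2 probe set intensity of the 26 Aux/IAA genes on each array. Green symbols are +Glu and purple symbols −N, open circles are replicate 1 and filled triangles replicate 2, and a vertical line joins the 2 arrays of a group. In IAA2, IAA4 and IAA25 both green symbols lie above both purple ones, and in IAA12, IAA13, IAA30 and IAA31 they lie within a wide purple pair.

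IAA2, IAA4 and IAA25 were the Aux/IAA genes with higher values on both +Glu arrays. IAA2 had an intensity of 151 and 185 in +Glu, against 119 and 127 in −N. The groups did not overlap, and the mean was 168 ± 24.3 in +Glu and 123 ± 5.64 in −N (SD, n = 2 each). This is a 1.36-fold difference with a 95% interval of 0.913 to 2.02. IAA4, whose overproduction in rice widens the tiller angle and lowers the response to a synthetic auxin, had 50.3 and 60.8 in +Glu and 48.6 and 49.6 in −N (1.13-fold, 0.763 to 1.66). The nearest arrays of the 2 groups were thus almost level. IAA25 had 62.8 and 65.8 in +Glu and 59.0 and 62.6 in −N, a 1.06-fold difference in which the groups touched without overlapping. The brightest probe set of IAA4 can bind several transcripts, and its 2 other probe sets gave log2 fold changes of 0.22 and 0.32, of the same sign.

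IAA26, IAA24, IAA21 and IAA10 were the members with the lowest fold changes among those in which both +Glu arrays were below both −N arrays. IAA26 had 15.4 and 20.0 in +Glu and 22.0 and 31.6 in −N. It had the smallest unadjusted p of the 44 genes (0.0897, adjusted p = 1 from limma), with a fold change of 0.665 (0.405 to 1.09). Its intensities were near the median probe set of the arrays. IAA24 had 446 and 549.5 in +Glu, against 562 and 726 in −N (0.775-fold, 0.499 to 1.21). IAA21 had 1794 and 1815 in +Glu and 1963 and 2133 in −N (0.882-fold), without overlap. IAA10, whose protein is bound by a rice dwarf virus protein that protects it from breakdown, had 675 and 729 in +Glu and 799.6 and 755 in −N (0.903-fold). IAA1 was the fifth gene of this order, with a fold change of 0.970.

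IAA19 and IAA23 lie outside the rule by which genes were picked for description and were added after their values were seen. IAA19 had 207 and 282 in +Glu and 136 and 209.5 in −N, so that the lower +Glu array fell just short of the higher −N array. Between arrays of the same replicate number, +Glu was above −N in both cases. The fold change was 1.43 with a 95% interval of 0.832 to 2.47 (unadjusted p = 0.152, adjusted p = 1 from limma). Without −N replicate 2 the log2 fold change was 0.83 (unadjusted p = 0.0118), and without −N replicate 1 it was 0.21 (unadjusted p = 0.530), from the same limma fit with 1 array fewer.

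IAA23, in which a stabilizing mutation in rice disturbs the quiescent centre, the small group of slowly dividing cells at the root tip, was measured by 3 probe sets that differed in size but not in direction. The brightest had 349.9 and 464 in +Glu and 294 and 359 in −N, with overlapping groups and a fold change of 1.24 (0.793 to 1.94). A second one, which is specific to this transcript where the first can bind several, had 311 and 303 in +Glu and 168 and 209 in −N. Here the groups were apart, with a log2 fold change of 0.72 (unadjusted p = 0.0236, adjusted p = 0.983 from limma when probe sets that can bind several transcripts were left out). The third was near the lowest intensities, at 6.09 and 5.72 in +Glu and 5.73 and 5.37 in −N.

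Among the bright Aux/IAA probe sets, IAA3 and IAA17 were close to level. IAA3 had 6253 and 6143 in +Glu and 6222 and 6457 in −N, a fold change of 0.978 with a 95% interval of 0.681 to 1.40. All 4 arrays lay within a narrow band and the groups overlapped. IAA17 had 4513 and 4921 in +Glu and 4197 and 5155 in −N (1.01-fold, 0.680 to 1.51), with the +Glu arrays inside the −N pair. Its probe set can bind several transcripts, so closely related copies may share its signal.

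A further group of Aux/IAA genes had −N arrays far apart and +Glu arrays close together between them. IAA13, in which a stabilizing mutation blocks lateral root formation in rice, had 5126 and 5582 in +Glu and 4545 and 7470.4 in −N. Its fold change was 0.918 (0.541 to 1.56). IAA12 had 1279 and 1327 in +Glu and 879 and 1621 in −N, and IAA9 had 121 and 128 in +Glu and 74.7 and 138 in −N. The −N replicates of both were 1.84-fold apart, against 1.04-fold for IAA12 and 1.06-fold for IAA9 between the +Glu replicates.

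IAA30 and IAA31 lie next to each other on chromosome 12, with 0 genes between them in the gene table, and had the same order of arrays apart from that of the +Glu pair. IAA30 had 1507 and 1655 in +Glu and 1266 and 2418 in −N, and IAA31 had 1272 and 1183 in +Glu and 1155 and 2115 in −N. In both genes −N replicate 2 was the highest of the 4 arrays and −N replicate 1 the lowest. Without −N replicate 1 the log2 fold change of IAA31 was −0.79 (unadjusted p = 0.0174, adjusted p = 0.262 from limma), and without −N replicate 2 it was 0.087. As given above, the +Glu arrays lay between the −N arrays also in the 7 green tissue genes, 5 of 9 root markers and 29.9% of all genes. The part of green tissue in the values of these auxin genes was not tested. IAA31 was named after its values were seen.

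The 10 Aux/IAA genes not described singly had fold changes from 0.828 to 1.15. A few of them are given here, chosen after their values were seen. Among these is IAA6, which has been linked to drought tolerance and tiller outgrowth, with 582 and 751 in +Glu and 714 and 893 in −N, and IAA20, with 867 and 703 in +Glu and 992 and 646 in −N. With the values as deposited, IAA20 was the only Aux/IAA gene whose replicate 1 arrays both exceeded its replicate 2 arrays, as in 6.1% of all genes. IAA8, IAA14 and IAA16 stayed between 5.03 and 9.49 on all arrays, near the lowest intensities, where little can be told of a transcript's level. IAA1 (1238 and 1275 in +Glu, 1278 and 1312 in −N) and IAA5 (1893 and 1952 in +Glu, 1949 and 2028 in −N) differed little between any of the 4 arrays.

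The ARF genes, which encode the transcription factors that Aux/IAA proteins hold in check, had fold changes between 0.869 and 1.26. The log2 fold change was positive in 12 and negative in 5 of the 17, with a median of 0.083, against 0.026 over all genes. Over all genes 9880 were positive and 8025 negative. After quantile normalization the split of the ARF genes was 9 and 8, against 8539 and 9365 over all genes. Leaving out −N replicate 1 gave an ARF median of −0.034, against −0.13 over all genes. Leaving out +Glu replicate 2 gave −0.13, against −0.071 over all genes. Each +Glu array exceeded each −N array in 1 ARF gene, against 14.9% of all genes, and the opposite order was found in 0, against 10.1%. After median centring of the arrays the first order was found in 6 ARF genes, against 21.6% of all genes, and the opposite order in 0, against 8.18%. After quantile normalization these counts were 4 and 2, against 16.2% and 15.3%.

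**Figure D3:**
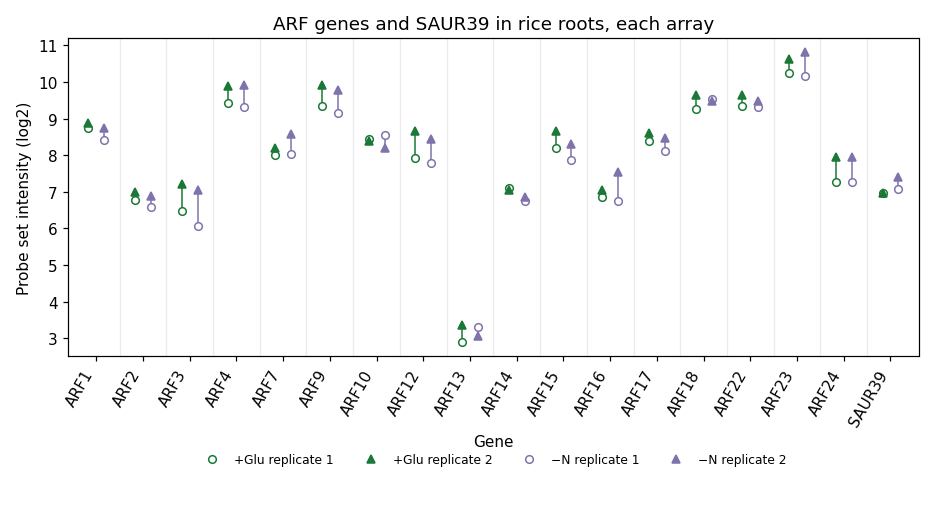
log2 probe set intensity of the 17 ARF genes and SAUR39 on each array, with green symbols for +Glu, purple symbols for −N, open circles for replicate 1 and filled triangles for replicate 2. In 13 of the 17 ARF genes both triangles lie above both circles, and ARF14 is the ARF gene in which the green symbols lie above the purple ones.

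ARF14 was the ARF gene with non-overlapping groups. It had 139 and 133 in +Glu, against 108 and 116 in −N, and the mean was 136 ± 3.81 in +Glu and 112 ± 5.90 in −N (SD, n = 2 each). The fold change was 1.22 with a 95% interval of 0.843 to 1.76 (unadjusted p = 0.232, adjusted p = 1 from limma). ARF14 belongs, with ARF2, ARF3 and ARF15, to the ARF genes whose transcripts are targets of trans-acting small interfering RNAs. This and the other groupings of ARF genes below, and the ARF genes given with them beyond the 7 that the naming rule picks, were chosen after the values were seen. The log2 fold change was positive in all 4, at 1.12- to 1.26-fold, and the groups overlapped in the other 3. A positive log2 fold change was found in 12 of all 17 ARF genes and in 9880 of the 17905 genes measured.

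ARF15, also known as OsETTIN1, had the highest fold change of the family, with 293 and 403 in +Glu and 236 and 314 in −N (1.26-fold, 0.776 to 2.05). ARF2, also known as OsETTIN2, had 109.9 and 128 in +Glu and 95.2 and 117 in −N. ARF3 had 89.8 and 147 in +Glu and 66.7 and 133 in −N. Its replicates were further apart than its groups, 1.64-fold in +Glu and 2.00-fold in −N, against a fold change of 1.22 between the groups. Without −N replicate 2 its log2 fold change was 0.78 (unadjusted p = 0.0176, adjusted p = 0.227 from limma), and without −N replicate 1 it was −0.21.

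ARF12 and ARF17 are members of the ARF genes targeted by miR167. In rice, loss of ARF12 shortens the primary root. ARF12 had 242 and 404 in +Glu and 220.0 and 351 in −N, with a fold change of 1.13 (0.592 to 2.14). In each group replicate 2 was well above replicate 1. ARF17 had 335 and 390.1 in +Glu and 278 and 353 in −N (1.15-fold), again with overlap.

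ARF10, ARF13, ARF18 and ARF22 carry target sites of miR160. Their fold changes ranged from 0.959 to 1.06. ARF18 had 616 and 799.8 in +Glu and 745 and 719 in −N, and ARF10 had 348 and 334 in +Glu and 374 and 291 in −N. ARF13 lay between 7.45 and 10.3 on all arrays.

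ARF23 and ARF24 are partners in rice that together act on a gene of the actin cytoskeleton. ARF23, first described as OsARF1, had 1204 and 1591 in +Glu and 1143 and 1796 in −N, with a fold change of 0.966 (0.561 to 1.66). ARF24 had 155 and 247 in +Glu and 153 and 246 in −N, a fold change of 1.01. Each +Glu array of ARF24 was thus level with the −N array of the same replicate number, while the replicates of either group differed about as much as in ARF12.

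Other bright ARF probe sets also had wide replicate gaps. ARF4 had 686 and 952 in +Glu and 639.8 and 976 in −N (1.02-fold), and ARF9 had 645 and 961 in +Glu and 567 and 883 in −N (1.11-fold). The +Glu arrays of ARF4 lay inside its −N pair, as did those of ARF23. The same held for ARF16, with 116 and 132 in +Glu and 107 and 185 in −N and a fold change of 0.876 (0.501 to 1.53). ARF7 had the lowest fold change of the family, with 257 and 293 in +Glu and 259.6 and 384 in −N. The 10 ARF genes outside the naming rule ranged from 0.869- to 1.26-fold.

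In many members the arrays were ordered by replicate number. In 13 of the 17 ARF genes (76.5%) and 15 of the 26 Aux/IAA genes (57.7%) each replicate 2 array exceeded each replicate 1 array, against 55.1% of all genes. Since replicate 2 was brighter over the whole array in both groups, the counts were also taken after median centring. They were then 6 of 17 ARF genes and 2 of 26 Aux/IAA genes, against 20.4% of all genes. The gap between replicates was a median of 0.38 on the log2 scale in +Glu and 0.41 in −N for the ARF genes. For the Aux/IAA genes it was 0.12 in +Glu and 0.35 in −N, and over all genes it was 0.24 in +Glu and 0.38 in −N.

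**Figure D4:**
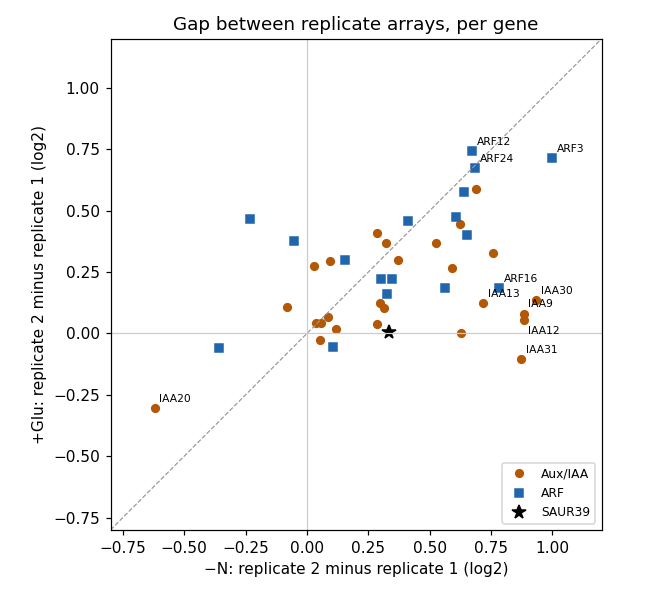
Replicate 2 minus replicate 1 on the log2 scale for each auxin response gene, in −N (horizontal axis) and in +Glu (vertical axis), with the dashed line at equal gaps. ARF12 and ARF24 lie near the line, with gaps of similar size in both groups, whereas IAA9, IAA12, IAA30 and IAA31 have gaps of over 0.8 in −N and of at most 0.14 in +Glu.

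SAUR39, the 1 SAUR gene measured, encodes a small protein that in rice lowers auxin synthesis and transport when it is overproduced. It had 124 and 125 in +Glu, against 134 and 169 in −N. Both +Glu arrays were below both −N arrays, and the mean was 125 ± 0.351 in +Glu and 152 ± 24.8 in −N (SD, n = 2 each). The fold change was 0.827 with a 95% interval of 0.553 to 1.24 (unadjusted p = 0.286, adjusted p = 1 from limma). The log2 fold change was −0.35 after quantile normalization and −0.24 after median centring. It was between −0.44 and −0.11 when 1 array was left out. With both +Glu arrays below both −N arrays, leaving out 1 array could not turn the sign. SAUR39 has 1 probe set, so the choice of probe set could not change its value. Other genes of the SAUR family were not analysed here.

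The intensities of a member's several probe sets could lie far apart, as for IAA3 (6253 and 18.1 in +Glu replicate 1). The log2 fold changes had the same sign in most members with several probe sets. Of the 9 such genes, IAA8 was the one whose probe sets differed in the sign of the log2 fold change among the Aux/IAA genes (0.20 and −0.08, both near the lowest intensities). Among the ARF genes this held for ARF23 (−0.05 and 0.04). No difference in sign exceeded 0.5 on the log2 scale.

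Other genes, listed by name under the auxin pathway, were set beside these families. Of 26 measured genes of auxin synthesis, transport, conjugation and hydrolysis, and of corepressors, 3 had an unadjusted p under 0.05 from limma with higher values in +Glu and 0 with lower values, against 3.81% and 0.374% of all genes. After adjustment 0 of the 26 passed. Of 17 conjugation and hydrolysis genes 2 were among the 3, and of 5 PIN genes 1. GH3.5, also listed as JAR1, and DAO were counted by name among the 17. What their enzymes do was not checked here. The TIR1 and AFB receptor genes were not analysed here. The log2 fold change was positive in 20 and negative in 6 of the 26, with a median of 0.13, against 9880 positive and 8025 negative and a median of 0.026 over all 17905 genes.

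GH3-8, an enzyme that joins auxin to amino acids, is one of the genes the study chose on these arrays. The study also reported its induction by glutamate from qRT-PCR. On the arrays it had 977 and 957 in +Glu, against 396 and 331 in −N. The groups were far apart, with a fold change of 2.67 and a 95% interval of 1.82 to 3.93 (unadjusted p = 0.00103, adjusted p = 0.560 from limma). ILL6, named for hydrolases that release auxin from such conjugates, had 147 and 140.1 in +Glu and 89.9 and 95.8 in −N (1.55-fold, unadjusted p = 0.0273, adjusted p = 0.992 from limma). A PIN auxin exporter gene listed both as PIN5 and as PIN9 had 59.6 and 73.2 in +Glu and 32.6 and 42.7 in −N (1.77-fold, unadjusted p = 0.0207, adjusted p = 0.925 from limma). The unadjusted p of both exceeded 0.05 when −N replicate 1, +Glu replicate 1 or +Glu replicate 2 was left out, reaching 0.198 for ILL6 and 0.164 for the PIN gene.

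**Figure D5:**
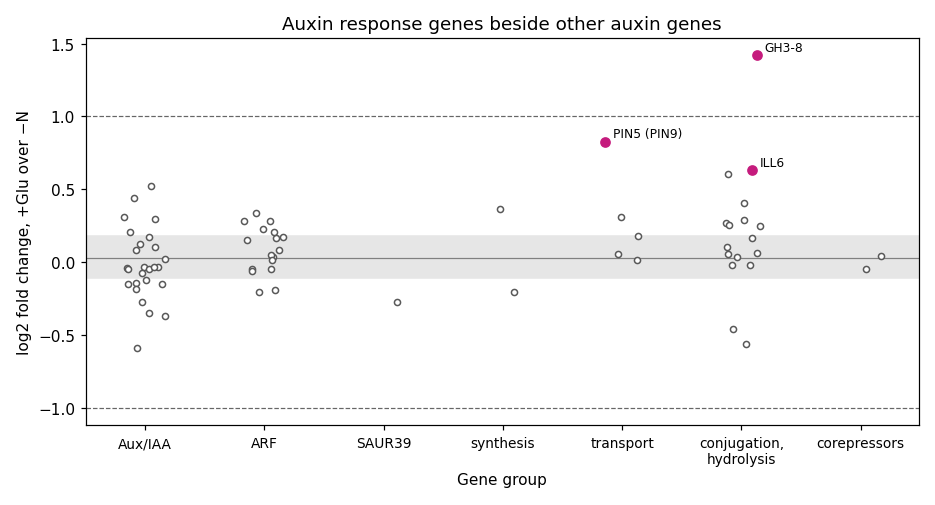
log2 fold change of +Glu over −N for the Aux/IAA and ARF genes, SAUR39 and 4 groups of other auxin genes, each point 1 gene. Filled magenta points have an unadjusted p under 0.05 from limma, the grey band spans the quartiles of all 17905 genes, and dashed lines mark 2-fold. The filled points are GH3-8, PIN5 (PIN9) and ILL6, and no member of the 3 auxin response families is filled.

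The remaining genes of these lists, given by their counts, had smaller fold changes than GH3-8. The 17 conjugation and hydrolysis genes had a positive log2 fold change in 13 and a negative one in 4, with a median of 0.16. The 5 PIN genes ranged from 1.01- to 1.77-fold, the 2 synthesis genes from 0.869- to 1.29-fold, and the 2 TOPLESS-type corepressor genes, whose proteins Aux/IAA repressors recruit, from 0.967- to 1.03-fold.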

How the data were processed

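The deposited table holds intensity values as the authors left them, linear, from 3.15 to 21379. GCOS and RMA are named in the submitters' processing notes without version or role. Since RMA normally yields log2 values, log2 was taken here, with no pseudocount. There are no detection calls. After 123 control probe sets were removed, 57258 were left. The array annotation assigns 22436 of them to 1 gene, 95 to several genes and 34727 to none. In 3444 genes with more than 1 such probe set, the brightest by mean log2 was kept. Names are symbols or synonyms from the gene table of RefSeq assembly ASM3414082v1. A gene with several matching names was called by the name that no other gene held alone. LAX1, LAX2, CRL4 and ASP1 were left out because the other names of the genes so listed belong to different genes. No coordinates are printed, as the build behind the annotation is unknown.

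The groups follow the labels. R 4.3.3 and limma 3.58.1 (lmFit, eBayes) gave two-sided tests of +Glu minus −N, without the replicate number, over all genes, with Benjamini-Hochberg adjustment. The script was first tested on simulated data. The thresholds of 2-fold and p under 0.05 come from the study's methods and were set against limma's unadjusted p. Plots were made in Python 3.11.15 (pandas 2.3.3, matplotlib 3.10.9). In each family, the rule for genes described singly took every member at p under 0.05, up to 4 members at either end of the fold changes among those whose groups did not overlap, the 3 brightest, and the 3 with the widest gap between replicates. Other genes are marked where they are named. The members, lists and tests were chosen with earlier results of these data known. The closing section gives the effect of a replicate block, of leaving out each array, of quantile normalization, of median centring, of filters on dim genes (mean log2 at or over 5, or over the probe set median), of averaging a gene's probe sets, of removing probe sets that can bind several transcripts, and of fitting every probe set.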

Additional observations from a re-analysis of the deposited data

How the results depend on the processing

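Under every alternative run, 0 of the 44 auxin response genes were at least 2-fold apart with an unadjusted p under 0.05 from limma. Over all genes this count was 309, and between 211 and 663 with 1 array left out, the highest without −N replicate 1. The count of Aux/IAA genes at an unadjusted p under 0.05, 0 in the fit described, was 2 after quantile normalization (IAA24 and IAA26), 2 after median centring (IAA19 and IAA26), 1 when probe sets with several possible targets were removed (IAA23) and 0 to 2 with 1 array left out (IAA26 and IAA31 without −N replicate 1, IAA9 and IAA19 without −N replicate 2). That of ARF genes was 0 to 1 with 1 array left out (ARF3 without −N replicate 2). For the 26 other auxin genes it was 3, against 5 after quantile normalization, 5 after median centring and 1 to 7 with 1 array left out. With the replicate number as a block it was 3 for the Aux/IAA genes (IAA2, IAA19 and IAA26) and 6 for the other auxin genes. The share of all genes at an unadjusted p under 0.05 was 4.18% in the fit described and was not counted in the other runs. Whether the family counts in those runs moved with the whole array therefore cannot be told. Deviations of same-numbered arrays from their group means correlated across 17905 genes (r = 0.43), but with 2 pairs the numbers were not taken to pair the samples. With 1 array left out, the median log2 fold change of the Aux/IAA genes lay between −0.14 (without −N replicate 1) and 0.16 (without −N replicate 2). That of the ARF genes lay between −0.13 (without +Glu replicate 2) and 0.34 (without −N replicate 2). The median of all genes was −0.13 without −N replicate 1 and 0.20 without −N replicate 2. It was 0.14 without +Glu replicate 1 and −0.071 without +Glu replicate 2.

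The sign of 12 of 24 genes described singly turned when 1 array was left out. The naming rule shaped this count, so it does not describe the families. Genes picked for groups that did not overlap could not turn, and genes picked for wide replicate gaps were prone to. The lowest and highest log2 fold changes were −0.21 and 0.78 for ARF3, −0.27 and 0.34 for ARF4, −0.17 and 0.47 for ARF9, −0.20 and 0.54 for ARF12, −0.58 and 0.20 for ARF16 and −0.38 and 0.28 for ARF23. They were −0.14 and 0.74 for IAA9, −0.32 and 0.57 for IAA12, −0.48 and 0.24 for IAA13, −0.13 and 0.17 for IAA17, −0.61 and 0.32 for IAA30 and −0.79 and 0.087 for IAA31. Quantile normalization turned the sign of ARF4 (−0.034) and IAA3 (0.00070). A fit with 1 array fewer assumes that the lone array varies like the other group. The causes were not tested. IAA17 could not be tested when probe sets that can bind several transcripts were removed. The 5 dim members (ARF13, IAA8, IAA14, IAA16 and IAA26) could not be tested under the filter on a mean log2 of at least 5. Without detection calls, whether these dim members lie above background is not known.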
